A study of Mus musculus with 4 samples.

Results

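The genes described here act when spermatogonia leave the stem cell state and start to differentiate. They are *Kit*, *Stra8*, *Sohlh1*, *Sohlh2*, *Dmrt1*, *Dmrtb1*, *Neurog3*, *Sox3* and *Rhox13*. They were taken by their symbols from the deposited expression table, which lists 37653 genes, and joined by identifier to the count table of 55335 genes. All 9 were found, and all 9 held enough counts to be tested. The study sequenced poly(A) RNA of mouse spermatogonial stem cells (SSCs), which renew themselves and give rise to sperm. It compared cells labelled Tex11PM/Y with wild-type (WT) cells, with 2 libraries for each genotype. *Tex11*, on the X chromosome, acts in meiotic crossing over, and the labels do not say what PM stands for. Cells of both genotypes derived from C57/BL6*DBA2 mice at postnatal day 10, were kept and passaged in culture, and were collected on a cell sorter. The labels give no further allele or treatment for either genotype. Whether the libraries within a genotype were separate cultures or mice is not stated, so p-values measure only how these libraries vary, which may be technical.

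Total counts ranged from 19047148 to 19804951 per library. The Tex11PM/Y libraries are called A and B, because both of their columns carry the same replicate number. Levels are given as CPM, counts scaled to a common library size, and the upper limit set by a count of 0, which is 3 counts, was 0.149 to 0.169 CPM. *Tex11* held 22.7 and 9.32 CPM in Tex11PM/Y libraries A and B, against 66.4 and 126 CPM in WT replicates 1 and 2. The germ cell markers *Ddx4* and *Dazl* held 298 to 531 and 810 to 1194 CPM in the Tex11PM/Y libraries, against 214 to 357 and 552 to 876 CPM in the WT libraries. The summed level of 7 germ cell markers was 2741 and 2286 CPM in Tex11PM/Y libraries A and B, against 1601 and 2255 CPM in WT replicates 1 and 2. A list of 7 fibroblast genes summed to 155 and 3356 CPM in Tex11PM/Y, against 9536 and 2388 CPM in WT, and 6 macrophage genes to 24.1 and 1173 CPM, against 606 and 486 CPM. Library A was therefore lowest in fibroblast and macrophage genes, and WT replicate 1 was highest in fibroblast genes and lowest in germ cell markers. No pair of libraries was alike within sampling noise. The chi-square of counts over degrees of freedom was smallest across genotypes, at 18.6 for library B and WT replicate 2. It was 96.5 between the Tex11PM/Y libraries, 94.8 between the WT libraries and largest, at 217, for library A and WT replicate 1.

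Undifferentiated spermatogonia respond to retinoic acid by switching on the receptor tyrosine kinase KIT and, in cells that become competent for it, the meiotic gatekeeper STRA8. The basic helix-loop-helix factors SOHLH1 and SOHLH2 are needed for the differentiating state, and both act upstream of *Kit*. DMRT1 holds mouse spermatogonia in the mitotic programme and restrains *Stra8*, whereas DMRTB1, also called DMRT6, acts in late spermatogonia at the passage from mitosis to meiosis. NEUROG3 and SOX3 mark progenitors that are poised to differentiate, and RHOX13 is a homeobox protein of differentiating spermatogonia and early spermatocytes.

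Promoter sequences show where letters known from these factors occur before annotated start sites, some of which lie inside a gene. RefSeq promoters of GRCm38.p6, the build of the deposited coordinates, matched 7 of the 9 genes in 9 windows of 250 bases before a start site; *Dmrt1* and *Sox3* had no entry. Both strands were searched for the E-box CANNTG, bound by helix-loop-helix factors, its form CACGTG, the retinoic acid receptor core AGGTCA, direct repeats of AGGTCA spaced by 2 or by 5 bases, and the DMRT core ACANTGT. The window of *Sohlh1* is shown whole because it held the most matches. It lies at chr2:25847249-25847498 on the minus strand, upstream of the gene and outside annotated exons, and its capitals mark every match, with 1 AGGTCA overlapping an E-box.
Sohlh1: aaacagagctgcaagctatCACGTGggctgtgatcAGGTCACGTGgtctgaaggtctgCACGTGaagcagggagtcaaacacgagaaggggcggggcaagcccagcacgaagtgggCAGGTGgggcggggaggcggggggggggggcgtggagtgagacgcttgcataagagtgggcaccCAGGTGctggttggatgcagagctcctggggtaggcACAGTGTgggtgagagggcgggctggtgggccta
This window held 5 CANNTG matches, 3 of them CACGTG, starting 231, 211 and 192 bases before the start site. Among all 32851 promoter windows, 66.2% held at least 1 CANNTG, 12.2% held 3 or more, 6.02% held at least 1 CACGTG and 0.0609% held 3 or more.

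For *Stra8*, 30 bases around each match are shown, since retinoic acid is the known inducer of this gene. The window on the plus strand of chromosome 6 lies inside an exon of 1 longer annotated *Stra8* transcript, and its capitals mark AGGTCA in the first pair and ACANTGT in the last.
Stra8 at chr6:34920742-34920771: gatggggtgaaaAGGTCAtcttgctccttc
Stra8 at chr6:34920898-34920927: gcctggggtaccAGGTCAgttttttacctg
Stra8 at chr6:34920792-34920821: ggcaagttgttACAATGTtttcaccaatgt
The AGGTCA matches start 194 and 38 bases before the start site, and the ACAATGT match starts 145 bases before it. Of all windows, 14.02% held AGGTCA, 1.36% held it at least 2 times and 6.47% held ACANTGT. Both direct repeats, with AGGTCA exact in each copy, were rare, with 0.00913% of windows each, and none of the 9 windows held either. Repeats with other letters in a copy were not searched, so their absence was not tested. In the *Stra8* window the letters GGGTGA end 2 bases before the AGGTCA match that starts 194 bases before the start site. Both *Kit* windows held no match to any of the motifs. *Sohlh2*, *Neurog3* and *Rhox13* windows held 1 CANNTG each, and the windows of *Dmrtb1* held 3 and 2. The *Dmrtb1* window with 3 lies wholly inside an exon of 1 annotated *Dmrtb1* transcript. Exon bases of their own gene number 71 and 75 in the *Kit* windows and 16 in the *Sohlh2* window. A match describes these letters only, since binding was not measured.

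No gene of the group passed the threshold of an adjusted p of 0.05 in edgeR's quasi-likelihood test. That test, with Benjamini-Hochberg adjustment over all 17262 genes tested, called 0 genes (0%), the smallest adjusted p of any gene being 0.884, while 466 genes, or 2.7%, had an unadjusted p below 0.05. The numbers called by DESeq2 were 1 of all genes and 0 of the 9, and by limma 0 of both. Within the group only *Sox3* had an unadjusted p under 0.05. Libraries of the genotypes did not overlap in CPM for 4 of the 9 genes, of which *Dmrt1* and *Sox3* were higher and *Kit* and *Rhox13* lower in Tex11PM/Y. Among all genes tested 32.4% did not overlap, 16.1% with higher and 16.3% with lower values in Tex11PM/Y. The median size of the log2 fold change was 0.41 for the 9 genes and 0.40 for all genes tested. These are bulk samples, in which fewer cells of a type and less RNA per cell cannot be told apart.

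**Figure D1:**
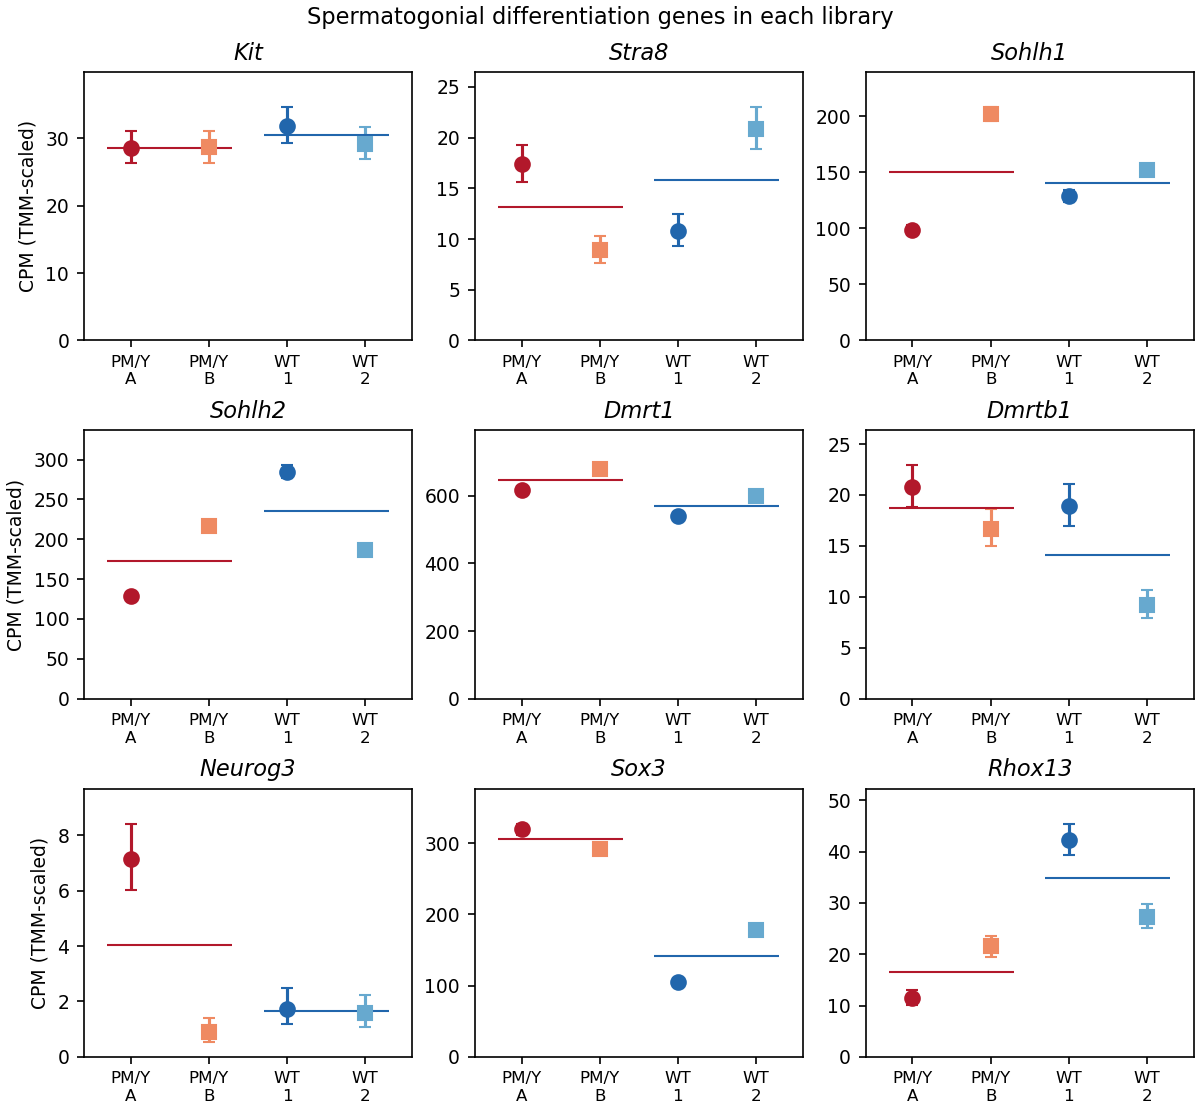
Scaled counts (CPM) of the 9 genes in Tex11PM/Y libraries A and B and WT replicates 1 and 2, 1 panel per gene with its own axis from 0. Points are libraries, bars are 95% intervals that cover counting error only, and horizontal lines are the means of each genotype. *Sox3* lies at 320 and 292 CPM in the Tex11PM/Y libraries and at 105 and 178 CPM in the WT libraries, while *Neurog3* stands out in library A alone.

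*Kit* encodes the receptor for stem cell factor and is the surface marker by which differentiating spermatogonia are usually told from undifferentiated ones. The gene lies on the plus strand at chr5:75574916-75656722 and has 21 merged exon blocks (identifier ENSMUSG00000005672.12). It had 28.6 and 28.7 CPM in Tex11PM/Y libraries A and B, from 567 and 575 counts, against 31.9 and 29.2 CPM in WT replicates 1 and 2, from 567 and 577 counts. The mean was 28.6 ± 0.0686 CPM in Tex11PM/Y and 30.5 ± 1.89 CPM in WT (SD, n = 2 each). All 4 libraries lay close together, with the highest 1.12 times the lowest, although both Tex11PM/Y values were below both WT values.

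The log2 fold change of *Kit* was -0.09 (SE 0.36, edgeR adjusted p = 0.972), with a 95% interval from -0.93 to 0.75. Its sign turned on the FPKM and TPM scales, with 0.0038 for log2(FPKM + 1) and 0.11 for log2(TPM + 1) in limma. The median of all genes was 0.07 and 0.19 in these settings, and *Kit* minus that median was -0.06 and -0.07. The SD of log2 CPM over the 4 libraries was 0.074 for *Kit*, and 1.13% of the genes tested had a smaller SD. Set against counting error, the chi-square of its counts over degrees of freedom was 1.503, where the median gene tested had 23.4 and 5.14% of genes had less. Per length, *Kit* held 4.59 and 4.76 FPKM in Tex11PM/Y and 4.64 and 4.68 FPKM in WT, near the middle of the genes tested (percentile 49.5).

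Cell types other than germ cells that can carry *Kit* were near the floor or low by their markers. Of 6 mast cell markers, 5 had no count in any library, and their sum was 0.252 and 0 CPM in Tex11PM/Y libraries A and B, against 0 and 0.0506 CPM in WT replicates 1 and 2. The 5 melanocyte markers summed to 5.89 and 8.62 CPM in Tex11PM/Y, against 9.66 and 7.84 CPM in WT, most of it *Mitf* and *Pmel*, with *Tyr* at 0.0504 CPM in library A and at 0 in the others. The 7 Leydig cell markers summed to 14.1 and 10.8 CPM in Tex11PM/Y, against 16.2 and 10.2 CPM in WT. *Star*, a cholesterol transporter, made up most of that, while *Cyp11a1* and *Cyp17a1* stayed below 0.75 CPM in each library.

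Of 30 KIT signalling genes tested, the ligand gene *Kitl* among them, 0 passed the threshold. Of these, 14 had positive and 16 negative log2 fold changes, with a median of -0.04, against 0.01 over all genes tested. The median turned positive on the FPKM scale (0.12 with log2(FPKM + 1)) and without library A (0.05). The median of all genes was 0.07 and -0.04 in these settings. Groups did not overlap for 5 genes with higher and 4 with lower values in Tex11PM/Y, a share near the 32.4% of all genes tested (16.1% higher and 16.3% lower). *Mtor*, the growth kinase, held 281 and 396 CPM in Tex11PM/Y libraries A and B, against 335 and 390 CPM in WT replicates 1 and 2, and the genotypes overlapped. *Akt1*, a kinase downstream of phosphoinositide 3-kinase, held 83.4 and 191 CPM in Tex11PM/Y, against 239 and 229 CPM in WT, with a log2 fold change of -0.77 (SE 0.41, edgeR adjusted p = 0.884). *Pik3cd*, a catalytic subunit of that kinase, held 199 and 269 CPM in Tex11PM/Y, against 154 and 198 CPM in WT. *Kitl*, the gene of the ligand, was named after its values were seen; it held 4.38 and 6.73 CPM in Tex11PM/Y, against 5.28 and 6.88 CPM in WT.

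*Stra8* encodes the retinoic acid-induced factor required for meiotic entry. Its count-table locus is chr6:34920163-34939344 on the plus strand (ENSMUSG00000029848.11). It held 17.4 and 8.92 CPM in Tex11PM/Y libraries A and B, against 10.8 and 20.9 CPM in WT replicates 1 and 2. Library A and WT replicate 2 were high and library B and WT replicate 1 low, so that the genotypes overlapped and each spread widely, 1.95-fold in Tex11PM/Y and 1.94-fold in WT. Means were 13.1 ± 5.98 CPM in Tex11PM/Y and 15.8 ± 7.14 CPM in WT (SD, n = 2 each). That gave a log2 fold change of -0.27 (SE 0.56, edgeR adjusted p = 0.945), with a 95% interval from -1.58 to 1.04. It became 0.09 without library B and 0.26 without WT replicate 2, so a single library set its sign. The ratio of *Stra8* to *Kit* FPKM was 2.11 and 1.11 in libraries A and B of Tex11PM/Y, against 1.20 and 2.52 in WT replicates 1 and 2.

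Of 24 genes of the retinoic acid pathway, which makes, binds and degrades the inducer of *Stra8*, 20 were tested and 0 passed. Positive changes were fitted for 8 and negative ones for 12, with a median of -0.28, against 0.01 over all genes tested. Other settings fitted more of the list. The list median was -0.01 in DESeq2, with 12 positive and 12 negative changes. Without WT replicate 1 it was 0.02, with 11 positive and 10 negative changes. *Rxra*, a nuclear receptor partner of the retinoic acid receptors, held 129 and 159 CPM in Tex11PM/Y, against 139 and 151 CPM in WT. *Rarg*, the receptor that acts in the response of undifferentiated spermatogonia, held 71.5 and 102 CPM in Tex11PM/Y, against 82.7 and 84.8 CPM in WT. Both overlapped between genotypes.

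An unadjusted p under 0.05 in edgeR was reached by 3 of the 20 genes, and by 466, or 2.7%, of all genes tested. *Rxrg*, a further RXR gene, held 4.89 and 1.25 CPM in Tex11PM/Y, against 0.281 and 0.405 CPM in WT (log2 fold change 3.13, SE 0.92). *Aldh1a1*, a retinaldehyde dehydrogenase, held 1.36 and 7.03 CPM in Tex11PM/Y, against 25.2 and 10.8 CPM in WT (log2 fold change -2.10, SE 0.84). *Crabp1*, a cytoplasmic retinoic acid-binding protein named after its values were seen, held 13.8 and 43.5 CPM in Tex11PM/Y, against 92.5 and 60.8 CPM in WT (log2 fold change -1.42, SE 0.56). The lowest *Aldh1a1* and *Crabp1* values were those of library A, which was also lowest in fibroblast and macrophage markers; the part of those cells was not tested. All 3 had an adjusted p of 0.884 with 4 libraries, and all 3 passed in the fit without library B, where 518 genes passed.

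*Sohlh1* and *Sohlh2* encode partner factors that bind E-boxes. *Sohlh1* lies at chr2:25842995-25847248 on the minus strand (ENSMUSG00000059625.6). It held 98.2 and 202 CPM in Tex11PM/Y libraries A and B, against 128 and 152 CPM in WT replicates 1 and 2. Library A was the lowest and library B the highest of all, 2.05-fold apart, and both WT libraries lay between them. The mean was 150 ± 73.1 CPM in Tex11PM/Y and 140 ± 16.8 CPM in WT (SD, n = 2 each). Genotypes differed by a log2 fold change of 0.10 (SE 0.39, edgeR adjusted p = 0.973), with a 95% interval from -0.82 to 1.01. It was -0.56 without library B, -0.04 without WT replicate 1 and -0.42 when libraries were scaled to the germ cell markers, a scaling that moved the median of all genes to -0.53.

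*Sohlh2* lies at chr3:55182028-55209957 on the plus strand (ENSMUSG00000027794.4). It held 129 and 216 CPM in Tex11PM/Y libraries A and B, against 285 and 186 CPM in WT replicates 1 and 2. Library A was again the lowest, WT replicate 1 was the highest, and the genotypes overlapped. The mean was 173 ± 61.6 CPM in Tex11PM/Y and 235 ± 69.9 CPM in WT (SD, n = 2 each). The log2 fold change was -0.45 (SE 0.37, edgeR adjusted p = 0.884), with a 95% interval from -1.32 to 0.43, and it ranged from -0.91 to -0.12 when each library was left out. Per length, the ratio of *Sohlh1* to *Sohlh2* FPKM was 1.29 and 1.65 in libraries A and B of Tex11PM/Y, against 0.780 and 1.47 in WT replicates 1 and 2. *Sohlh1* was thus the more abundant of the pair in each library except WT replicate 1.

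*Dmrt1*, a doublesex-related transcription factor gene, was the most abundant of the 9. It lies at chr19:25505618-25604329 on the plus strand (ENSMUSG00000024837.15). It held 617 and 679 CPM in Tex11PM/Y libraries A and B, against 541 and 598 CPM in WT replicates 1 and 2. Both Tex11PM/Y libraries lay above both WT libraries, with the highest 1.25 times the lowest. The mean was 648 ± 43.5 CPM in Tex11PM/Y and 570 ± 40.9 CPM in WT (SD, n = 2 each). The log2 fold change was 0.19 (SE 0.29, edgeR adjusted p = 0.924), with a 95% interval from -0.50 to 0.87; with germ cell marker scaling it was -0.35, or 0.18 above the median of all genes under that scaling. At a mean of 215 FPKM, *Dmrt1* ranked 181 among the 17262 genes tested.

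Sertoli cells also express *Dmrt1*, so their markers stand beside it. The 9 Sertoli markers summed to 18.4 and 15.5 CPM in Tex11PM/Y libraries A and B, against 15.0 and 27.6 CPM in WT replicates 1 and 2. *Fshr*, the receptor for follicle-stimulating hormone, had no count in any library, and *Amh*, the anti-Müllerian hormone gene, lay at 0.353 and 0.249 CPM in Tex11PM/Y, against 0.562 and 0.506 CPM in WT. *Sox9*, the highest of them by mean, held 6.19 and 7.92 CPM in Tex11PM/Y, against 5.51 and 12.4 CPM in WT. *Wt1*, a Sertoli cell transcription factor gene, held 7.10 and 3.59 CPM in Tex11PM/Y, against 1.40 and 5.11 CPM in WT, with overlap (log2 fold change 0.71, SE 0.80). *Cldn11*, a tight junction gene, held 0.604 and 1.49 CPM in Tex11PM/Y, against 3.15 and 5.51 CPM in WT, without overlap (log2 fold change -2.04, SE 0.77, unadjusted p = 0.0325 and adjusted p = 0.884 in edgeR). Of the 5 Sertoli markers tested, 0 passed, with 1 positive and 4 negative changes and a median of -0.60. Without WT replicate 2 more of the markers were fitted, with 4 positive and 4 negative changes and a median of 0.0002.

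*Dmrtb1* lies at chr4:107676292-107684230 on the minus strand (ENSMUSG00000028610.16). It held 20.8 and 16.7 CPM in Tex11PM/Y libraries A and B, against 18.9 and 9.20 CPM in WT replicates 1 and 2. WT replicate 2 was low, and WT replicate 1 lay between the Tex11PM/Y libraries. The mean was 18.7 ± 2.90 CPM in Tex11PM/Y and 14.1 ± 6.88 CPM in WT (SD, n = 2 each). Its log2 fold change was 0.41 (SE 0.50, edgeR adjusted p = 0.899), with a 95% interval from -0.77 to 1.59. It was -0.04 without WT replicate 2 and 1.00 without WT replicate 1. With germ cell marker scaling it was -0.28, or 0.25 above the median of all genes under that scaling.

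Across the DMRT family, *Dmrt1* and *Dmrtb1* included, 8 of 11 genes were tested and 0 passed. Positive changes were fitted for 7 of the 8, with a median of 0.35, against 0.01 over all genes tested. With germ cell marker scaling they were fitted for 2 of the 8, with a median of -0.24, where the median of all genes was -0.53. Without WT replicate 1 the list median was 0.16. *Dmrt2* held 6.55 and 5.43 CPM in Tex11PM/Y, against 2.70 and 3.34 CPM in WT, and did not overlap (log2 fold change 0.99, SE 0.60, edgeR adjusted p = 0.884). *Dmrt3* had 383 and 602 counts in Tex11PM/Y, against 372 and 501 counts in WT, with overlap. *Dmrta2* held 4.38 and 5.88 CPM in Tex11PM/Y, against 0.506 and 4.45 CPM in WT, so that 1 low WT library set its difference. *Dmrtc2*, a gene of meiotic germ cells, had the opposite sign, with 8.46 and 12.7 CPM in Tex11PM/Y, against 32.1 and 13.9 CPM in WT (log2 fold change -1.12, SE 0.55). *Dmrtc1a* and *Dmrtc1b* are near-identical copies whose reads may be split between them, and they stayed below 4 CPM.

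*Neurog3* encodes a helix-loop-helix factor of progenitor spermatogonia and was the least abundant of the 9. It lies at chr10:62133090-62134763 on the plus strand (ENSMUSG00000044312.4). It held 7.15 and 0.897 CPM in Tex11PM/Y libraries A and B, from 142 and 18 counts, against 1.74 and 1.57 CPM in WT replicates 1 and 2, from 31 counts each. Library A was the highest and library B the lowest, 7.97-fold apart, with both WT libraries between. The counting intervals (exact Poisson, 95%) ran from 6.02 to 8.43 CPM in library A and from 0.532 to 1.42 CPM in library B, against 1.18 to 2.47 CPM and 1.07 to 2.23 CPM in WT replicates 1 and 2. Counting error alone did not cover the gap between the Tex11PM/Y libraries.

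The log2 fold change of *Neurog3* was 1.28 (SE 0.98, edgeR adjusted p = 0.884), with a 95% interval from -1.02 to 3.58. Without library A it was -0.88, and without library B it was 2.06, so the sign rested on library A. *Neurog3* shares 273 exon bases with *Fam241b* on the opposite strand, and the counting is not stated to use strand, so reads in that stretch cannot be told apart. *Fam241b* had 472 and 489 counts in Tex11PM/Y, against 578 and 416 counts in WT. The part of the shared bases in the *Neurog3* values was not tested.

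*Sox3*, an X-linked single-exon gene of a SOXB1 transcription factor, had the smallest p of the 9. It lies at chrX:60891366-60893430 on the minus strand (ENSMUSG00000045179.9). It held 320 and 292 CPM in Tex11PM/Y libraries A and B, from 6346 and 5866 counts, against 105 and 178 CPM in WT replicates 1 and 2, from 1873 and 3512 counts. Both Tex11PM/Y libraries were above both WT libraries and lay closer to each other (1.09-fold) than the WT libraries did (1.69-fold). The mean was 306 ± 19.3 CPM in Tex11PM/Y and 141 ± 51.2 CPM in WT (SD, n = 2 each).

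*Sox3* was 2.16-fold higher in Tex11PM/Y, with a 95% interval from 1.24 to 3.77 and a log2 fold change of 1.11 (SE 0.34). Its unadjusted p in edgeR was 0.0132 and its adjusted p 0.884, so the difference did not pass over all genes tested. Estimates on the log2 scale were 0.76 to 1.52 when each library was left out and 0.66 with germ cell marker scaling, or 1.19 above the median of all genes under that scaling. The germ cell marker sum had the same order as *Sox3*, which was library A, library B, WT replicate 2 and WT replicate 1. Library B and WT replicate 2 were nearly equal in that sum (2286 and 2255 CPM), whereas *Sox3* differed between them. The part of germ cell content in the *Sox3* difference was not tested. Other SOXB1 and neurogenin genes were low. *Sox2* held 5.69 and 7.52 CPM in Tex11PM/Y, against 1.29 and 20.1 CPM in WT, while *Sox1*, *Neurog1* and *Neurog2* stayed below 0.75 CPM in each library.

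*Rhox13*, also X-linked, had the largest negative change of the 9. It lies at chrX:38121219-38129967 on the plus strand (ENSMUSG00000050197.5). It held 11.5 and 21.5 CPM in Tex11PM/Y libraries A and B, from 228 and 432 counts, against 42.4 and 27.3 CPM in WT replicates 1 and 2, from 754 and 540 counts. Both Tex11PM/Y libraries were below both WT libraries. The mean was 16.5 ± 7.10 CPM in Tex11PM/Y and 34.8 ± 10.6 CPM in WT (SD, n = 2 each). In edgeR the log2 fold change was -1.08 (SE 0.47, unadjusted p = 0.0560 and adjusted p = 0.884), with a 95% interval from -2.19 to 0.04. It ranged from -1.65 without library B to -0.69 without library A. The summed fibroblast markers were likewise lowest in library A and highest in WT replicate 1. Unlike *Rhox13*, they were higher in library B (3356 CPM) than in WT replicate 2 (2388 CPM), so that the genotypes overlapped. The part of fibroblasts in the *Rhox13* difference was not tested. The FPKM ratio of *Sox3* to *Rhox13* was 12.1 and 5.82 in libraries A and B of Tex11PM/Y, against 1.07 and 2.79 in WT replicates 1 and 2.

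*Rhox13* belongs to an X-linked homeobox cluster, of which 14 of 32 genes were tested and 0 passed. Positive changes were fitted for 4 and negative ones for 10, with a median of -0.40. Without library B the median was -1.01, with 2 positive and 13 negative changes. With log2(FPKM + 1) and no filter, which fitted more of the cluster, it was -0.10, with 9 positive and 16 negative changes. Germ cell marker scaling gave 0 positive and 14 negative changes, with a median of -0.95, where the median of all genes was -0.53. Groups did not overlap for 6 of the 14 genes, *Rhox13* among them, each with lower values in Tex11PM/Y, where 16.3% of all genes tested were lower without overlap. Many genes of the cluster are near-identical copies, so that reads may be split between them and their single values are uncertain. *Rhox1* held 5.49 and 11.9 CPM in Tex11PM/Y, against 10.2 and 11.3 CPM in WT. *Rhox7a* held 9.82 and 7.32 CPM in Tex11PM/Y, against 8.60 and 7.79 CPM in WT. Both overlapped, so the separation seen for *Rhox13* was not shared by the next most abundant gene, *Rhox1*.

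**Figure D2:**
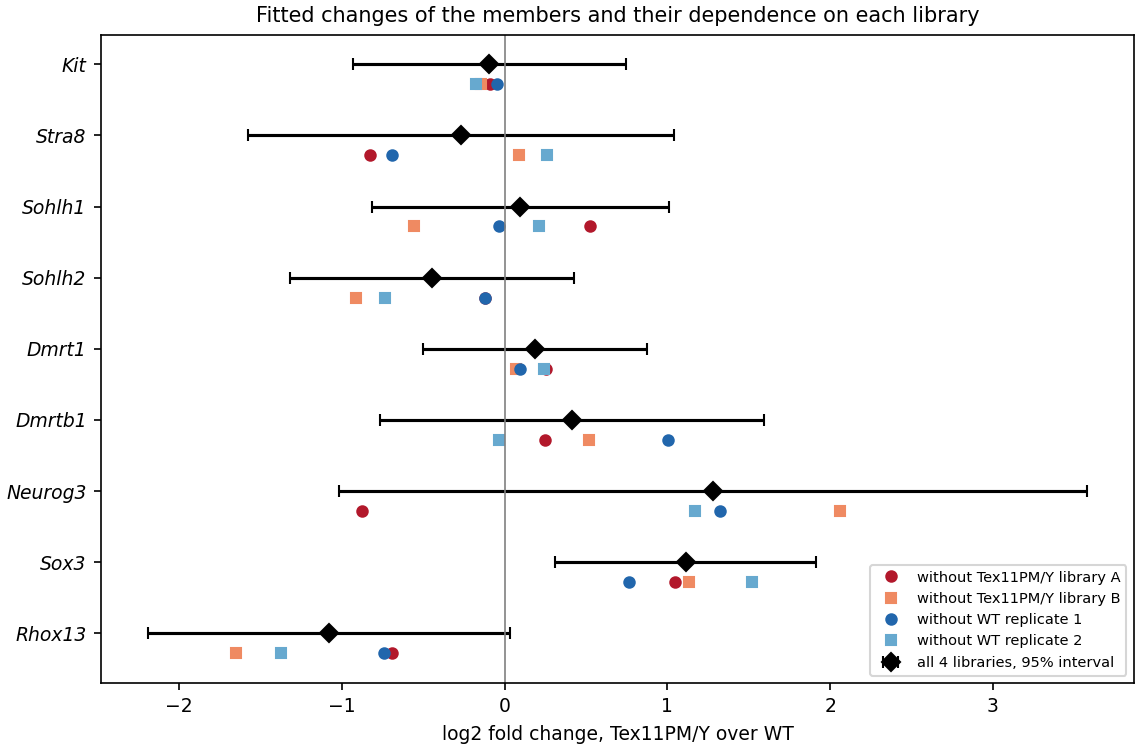
Log2 fold change, Tex11PM/Y over WT, of the 9 genes. Diamonds with bars are edgeR estimates from all 4 libraries with 95% intervals, and the smaller points beneath are estimates with 1 library left out. The interval of *Sox3* alone lies clear of 0 (0.31 to 1.91), and points fall on both sides of 0 for *Stra8*, *Sohlh1*, *Dmrtb1* and *Neurog3*.

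Genes of differentiating spermatogonia and meiotic entry, listed with *Kit* and *Stra8* left apart, were split between positive and negative changes. Of 27 genes, 25 were tested and 0 passed, with 12 positive and 13 negative changes and a median of -0.02. This balance depended on the libraries and the scale. Positive and negative changes numbered 7 and 18 without library A, 16 and 9 with log2(FPKM + 1), 17 and 8 with log2(TPM + 1), and 6 and 19 with germ cell marker scaling. The median was -0.16 without library A, 0.28 without WT replicate 2, 0.23 with TPM and -0.52 with germ cell marker scaling. In the same order, the median of all genes was -0.04, 0.07, 0.19 and -0.53. The list thus stayed near all genes with TPM and with germ cell marker scaling. *Ccnd2*, a cyclin that appears as spermatogonia differentiate, held 356 and 266 CPM in Tex11PM/Y, against 300 and 332 CPM in WT. *Dnmt3a*, a DNA methyltransferase, held 151 and 181 CPM in Tex11PM/Y, against 127 and 264 CPM in WT. Values of both overlapped. *Sycp2*, a component of the meiotic chromosome axis, held 201 and 31.2 CPM in Tex11PM/Y, against 24.0 and 40.4 CPM in WT. Library A alone was high, as for *Neurog3* (log2 fold change 1.85, SE 0.87, edgeR adjusted p = 0.884), and *Sycp2* passed in the fit without library B. *Meiosin*, which encodes the partner of STRA8 and stands in the count table as *Gm4969*, was named after its values were seen; it held 8.71 and 8.77 CPM in Tex11PM/Y, against 12.9 and 5.71 CPM in WT.

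Among 26 genes of undifferentiated spermatogonia, all tested, 0 passed, with 15 positive and 11 negative changes and a median of 0.15. That median was 0.43 without WT replicate 2, -0.20 without library B and -0.02 without WT replicate 1. With germ cell marker scaling it was -0.28, where the median of all genes was -0.53. *Zbtb16*, the transcription factor PLZF, held 608 and 489 CPM in Tex11PM/Y, against 227 and 355 CPM in WT (log2 fold change 0.91, SE 0.34, edgeR adjusted p = 0.884). *Bcl6b*, a target of the niche factor GDNF, held 19.2 and 15.1 CPM in Tex11PM/Y, against 61.0 and 26.8 CPM in WT (log2 fold change -1.35, SE 0.49, edgeR adjusted p = 0.884). *Ret*, the GDNF receptor kinase, held 498 and 449 CPM in Tex11PM/Y, against 649 and 428 CPM in WT. The first of these was higher and the second lower in both Tex11PM/Y libraries, and *Ret* overlapped. The FPKM ratio of *Kit* to *Zbtb16* was 0.0401 and 0.0498 in libraries A and B of Tex11PM/Y, against 0.123 and 0.0703 in WT replicates 1 and 2. The ratio of *Kit* to *Gfra1*, the GDNF co-receptor gene, named after its values were seen, was 0.161 and 0.198 in libraries A and B of Tex11PM/Y, against 0.112 and 0.211 in WT replicates 1 and 2, and overlapped.

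**Figure D3:**
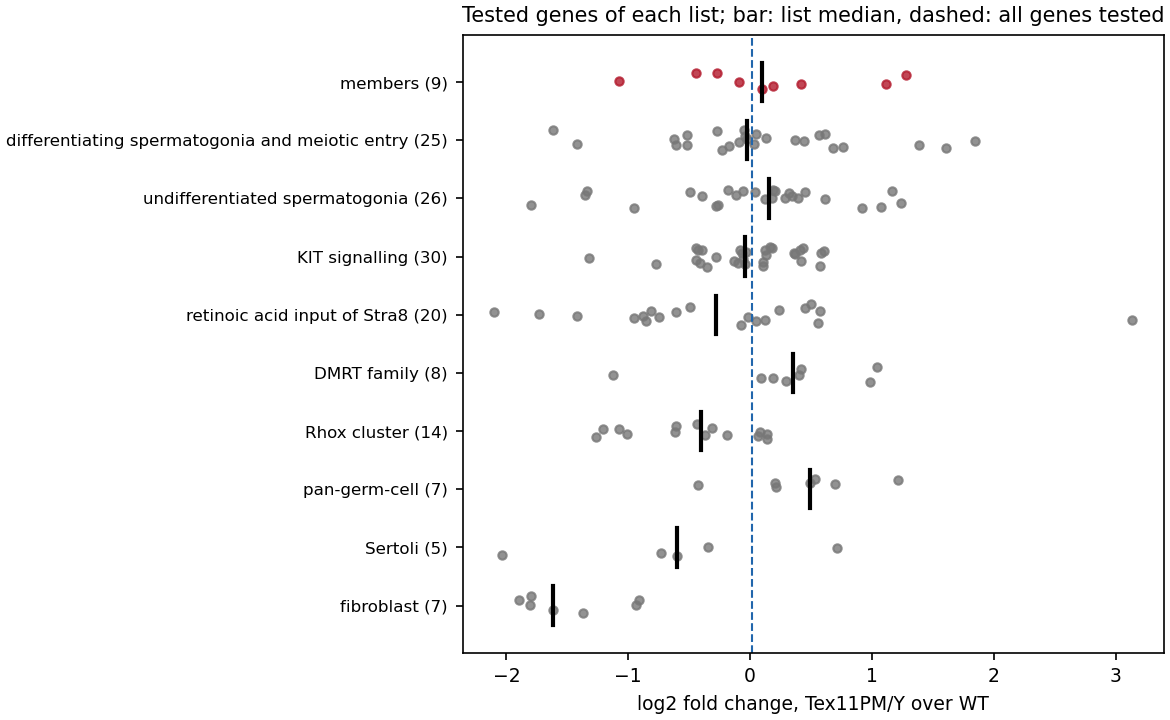
Log2 fold change, Tex11PM/Y over WT, of each tested gene (points) in the 9 described genes (row members) and in wider lists, with the number tested in brackets. Black bars are list medians and the dashed line is the median of all genes tested, 0.01. The differentiating list is centred near 0 (-0.02). Points of the fibroblast list all lie below 0, with a median of -1.62; that median was -0.68 without library A, with 2 of 7 genes above 0, -5.45 without library B and -0.72 without WT replicate 1.

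Levels between genes were compared per length, in deposited FPKM averaged over the 4 libraries. *Dmrt1* led with 215, followed by *Sox3* with 91.0, *Sohlh1* with 88.8, *Sohlh2* with 70.3, *Rhox13* with 23.4, *Stra8* with 8.08, *Dmrtb1* with 7.27, *Kit* with 4.67 and *Neurog3* with 1.73. In each of the 4 libraries *Dmrt1* was above *Sox3*, *Sohlh2* above *Rhox13* and *Rhox13* above *Stra8*. The mean log2 ratio of *Sohlh2* to *Rhox13* was 1.67 ± 0.38 (SD, n = 4 libraries). The order of the remaining neighbours was not the same in each library. *Sox3* exceeded *Sohlh1* in 1 library, with a mean log2 ratio of -0.06 ± 0.88, and *Stra8* exceeded *Dmrtb1* in 2, with 0.13 ± 0.96. These means lay within their spread, as did that of *Sohlh1* over *Sohlh2*, 0.32 ± 0.475. *Dmrtb1* exceeded *Kit* in 3 libraries, with 0.58 ± 0.53. *Kit* exceeded *Neurog3* in 3 libraries, with 2.01 ± 1.42; library A held 4.59 FPKM of *Kit* and 4.61 FPKM of *Neurog3*. With FPKM computed from counts and merged exon lengths, library A held 5.59 of *Kit* and 4.78 of *Neurog3*, so that *Kit* was then the higher there too. Deposited FPKM were 0.75 to 0.86 times these computed values for *Kit*, *Sohlh1*, *Sohlh2*, *Dmrt1*, *Dmrtb1*, *Sox3* and *Rhox13*, 0.79 to 0.97 times for *Neurog3* and 0.98 to 1.05 times for *Stra8*, which limits how finely levels of different genes can be compared.

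**Figure D4:**
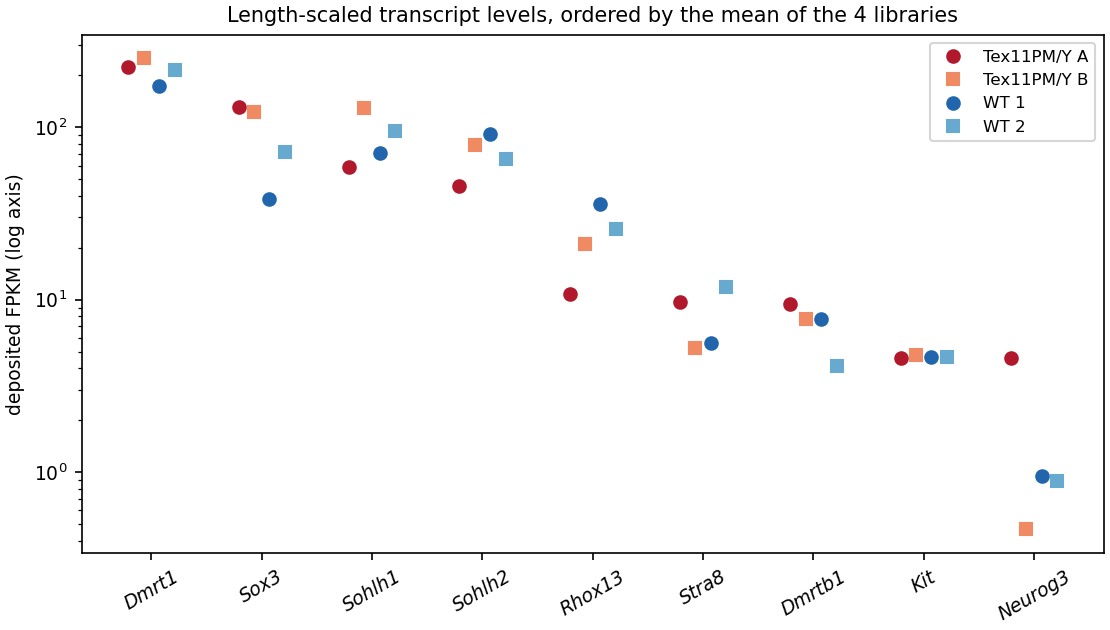
Deposited FPKM, a length-scaled transcript level, of the 9 genes on a log axis, ordered by the mean of the 4 libraries. Points are Tex11PM/Y libraries A and B and WT replicates 1 and 2. *Dmrt1* lies highest and *Kit* forms the tightest cluster, between 4.59 and 4.76 FPKM.

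The patterns of the 9 genes over the libraries differed. Library A was the highest for 3 and the lowest for 4 of them, library B for 2 and 2, WT replicate 1 for 3 and 2, and WT replicate 2 for 1 and 1. Likeness was measured as the root mean square difference of log2 CPM, each gene centred on its own mean over the 4 libraries, among 9485 genes with a mean of at least 10 CPM. Between members *Kit* and *Dmrt1* were closest, at 0.18, and *Neurog3* and *Rhox13* farthest apart, at 1.59. Both *Kit* and *Dmrt1* varied little, with SDs of log2 CPM of 0.074 and 0.135, and their genotypes were apart in opposite directions. *Sohlh1* and *Sohlh2* differed by 0.40. Closest to *Sox3* were *Nsmaf* (0.04), *Nanos3* (0.06) and *Prtg* (0.08), and 26 genes lay under 0.2. *Nanos3*, an RNA-binding factor of germ cells, held 61.2 and 56.6 CPM in Tex11PM/Y, against 19.3 and 30.6 CPM in WT. Closest to *Rhox13* were *Bhlhe40* (0.02), *Itgav* (0.06) and *Sri* (0.06), with 149 genes under 0.2. *Bhlhe40* held 20.6 and 37.5 CPM in Tex11PM/Y, against 73.2 and 48.8 CPM in WT. For *Stra8* the nearest were *Met*, *Nampt* and *Zbtb39*, at 0.14 to 0.17, with 17 genes under 0.2, whereas for *Kit* 2524 genes lay that close. With 4 libraries, such likeness reflects the size of the spread as well as its direction. For genes that vary little it is met by many others, whatever the order of the libraries.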

How the data were processed

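The authors deposited whole-number read counts per gene, not normalized, with exon coordinates and a gene length, per the file headers. The authors deposited FPKM and TPM values in separate tables, per the file headers. Per the submitters' processing notes, StringTie, STAR, fastp, DESeq2 and featureCounts were used with mm10, without roles or versions, and use of strand in counting is not stated. Libraries were made from 1 µg of RNA, per the labels' protocols. The columns of Tex11PM/Y share a single name, so libraries A and B follow column order.

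Tests on counts used edgeR 4.0.16 in R 4.3.3 (filterByExpr, TMM, robust quasi-likelihood fit with genotype as the only term) over 17262 genes, which gave the log2 fold changes, standard errors and intervals. CPM used TMM library sizes. The fit was tested on simulated data, with a condition to pass set only at a spread between libraries below that of these data. Passing it does not tell how many true changes would be found here. With 2 libraries a genotype, the smallest two-sided permutation p is 0.333. Alternatives were DESeq2 1.42.0 and its size factors, library size alone, scaling to the germ cell markers, other count filters (none, or 1 CPM in 2 libraries), limma 3.58.1 on log2(TPM + 1) and on log2 FPKM with a pseudocount of 1 or 0.1, with a mean of at least 0.5 FPKM or TPM, and leaving out each library. The described genes, the 14 wider lists and the tests were chosen with earlier results of these data known. In each list the text names the 4 genes of highest mean CPM and the 2 of largest change, or fewer, and any DMRT, SOXB1 or neurogenin gene with a count; the markers near 0 (*Fshr*, *Amh*, *Tyr*) were named after their values were seen, and other exceptions are marked. *Meiosin* was matched through a RefSeq synonym, and the marker *Gcna* was not analysed here. Results for 1 gene of the lists are not reported here; the list counts include it.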

Additional observations from a re-analysis of the deposited data

How the results depend on the processing

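None of the 9 genes passed the threshold under any of the 14 alternatives, the smallest adjusted p being 0.162 (*Rhox13*). Of 126 alternative log2 fold changes of these genes, 113 kept their sign and 13 changed it. *Sohlh2*, *Sox3* and *Rhox13* kept theirs throughout. *Kit* became 0.0038 with log2(FPKM + 1), with or without the filter, 0.0044 with log2(FPKM + 0.1) and 0.1149 with log2(TPM + 1). In each of these settings *Kit* stayed below the median of all genes. Scaling to the germ cell markers gave -0.4215 for *Sohlh1*, -0.3529 for *Dmrt1* and -0.2805 for *Dmrtb1*, and moved the median of all genes to -0.53; TPM moved it to 0.19. Leaving out each library gave -0.8259 to 0.2587 for *Stra8*, -0.5599 to 0.5252 for *Sohlh1*, -0.0371 to 1.0036 for *Dmrtb1* and -0.8760 to 2.0615 for *Neurog3*. Over all genes, 0 passed with 4 libraries, against 1 in DESeq2, 39 with germ cell marker scaling, 50 without the count filter, and 0 to 518 when each library was left out. The 518, of which 74 were higher and 444 lower in Tex11PM/Y, came without library B. Of the wider lists, 0 genes passed with 4 libraries and 0 to 16 when each library was left out, the 16 again without library B, where library A alone stands for Tex11PM/Y and is assumed to vary like WT. Of 196 list medians, 43 moved by more than their spread, and the genes fitted in a list differed between some settings. The causes were not tested. No paired analysis was possible because the Tex11PM/Y columns share a name and its replicate number. With 2 libraries a genotype, the 95% interval stayed within a 2-fold change in either direction for *Kit* and *Dmrt1* only among the 9 genes.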
